A study of Homo sapiens with 6 samples.

Results

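The SLC25 genes encode mitochondrial carriers, and 38 of the 12180 genes in the gene table bear such a symbol. They were chosen by symbol alone, as every gene named SLC25A followed by a number, without use of any measured value. UCP2, MTCH1 and MTCH2, carriers under other symbols, are described apart, and below the family means the 38 SLC25 genes. The transcript table listed 88 transcripts of these 38 genes among 33090 transcripts. A further symbol, SLC25A45, appeared only in the transcript table and was not counted. The libraries came from TE1 (also written TE-1), a human esophageal squamous cell carcinoma line, and were sequenced after mRNA enrichment. The NC group (3 libraries, genotype label WT) is described in the study's methods as cells that received lentivirus with random nonsense sequences, and the FGL1-OE group (3 libraries) as cells that received lentivirus carrying FGL1. The methods describe puromycin selection of stable lines with modified FGL1 expression. The WT label does not say whether the sequenced NC cells were infected and selected too, so infection and selection may differ between the groups. Each group may be 1 population of cells. The labels do not tie the 3 libraries of a group to separate cultures, and the study's general statement on independent experiments does not name the RNA sequencing, so the p-values measure the spread between these libraries, which may be technical. The comparison asks how the transcripts of the carrier family differ between cells with and without FGL1 overexpression.

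Mitochondrial carriers are small membrane proteins with several membrane-spanning helices that sit mostly in the inner mitochondrial membrane and move nucleotides, phosphate, organic acids, amino acids, cofactors and metals between the matrix and the cytosol. They are encoded in the nucleus, made in the cytosol and brought into the inner membrane by a dedicated import route. In tumor cells they are studied because they link mitochondrial metabolism to the supply of citrate, aspartate, nucleotides and glutathione outside the mitochondrion. Levels below are FPKM, fragment numbers corrected for transcript length and for the fragments mapped in a library. Differences are log2 fold changes of FPKM + 1, FGL1-OE minus NC, and understate the change of genes at low levels.

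FGL1, the targeted gene, was at 0.0202, 0 and 0.106 FPKM in NC 1 to NC 3 and at 33.5, 39.3 and 39.9 FPKM in FGL1-OE 1 to FGL1-OE 3 (log2 fold change 5.21, SE 0.15, limma adjusted p = 1.29e-05), so the labels and the targeted gene point the same way. Of 10 squamous epithelium markers, 7 were listed, with summed levels of 358 to 671 FPKM in NC and 550 to 628 FPKM in FGL1-OE. KRT14, SOX2 and PKP1 were not listed and TP63 was at a mean of 0.475 FPKM. All 4 general epithelium markers were listed, against 2 of 5 fibroblast markers (summed level 2.20 to 8.11 FPKM), 1 of 3 leukocyte markers and 0 of 2 endothelial markers. NC 1 and NC 2 were the least similar pair of libraries (Pearson r = 0.885 across genes, against 0.935 to 0.986 for every other pair). Both of them stood apart from the other 4 libraries, with which NC 1 correlated at 0.935 to 0.964 and NC 2 at 0.950 to 0.971. Among themselves those 4 libraries correlated at 0.978 to 0.986. Results are therefore also given without NC 1 and without NC 2.

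The sequences shown first are alternative coding segments of SLC25A25, SLC25A39 and SLC25A3, whose transcript values are given further below. They were chosen after the transcript values had been seen, and they are read from GENCODE v29 transcripts on GRCh38. Capitals mark the alternative segment and lower case the 30 bases of the spliced transcript on either side. SLC25A25 encodes a calcium-regulated ATP-Mg and phosphate carrier. Its 36-base cassette exon lies at chr9:128102080-128102115 on the plus strand of GRCh38, within the coding sequence, and is carried by SLC25A25-202 and SLC25A25-204 but not by SLC25A25-201, SLC25A25-203 or SLC25A25-205. SLC25A39 encodes the carrier needed for mitochondrial glutathione uptake. Its 24-base segment lies at chr17:44322529-44322552 on the minus strand, where SLC25A39-202 alone among 7 listed transcripts starts a coding exon further upstream. Both lengths are multiples of 3, so that inclusion keeps the reading frame. SLC25A3, the phosphate carrier, has the mutually exclusive exons 3A (125 bases, chr12:98595433-98595557) and 3B (122 bases, chr12:98595727-98595848), both on the plus strand, of which 3A is known from heart and skeletal muscle and 3B from most tissues.
SLC25A25 cassette exon: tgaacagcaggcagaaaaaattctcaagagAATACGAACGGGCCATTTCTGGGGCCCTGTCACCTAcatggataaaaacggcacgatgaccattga
SLC25A39 alternative exon start: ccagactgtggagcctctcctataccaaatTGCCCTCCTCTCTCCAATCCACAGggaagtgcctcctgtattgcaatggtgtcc
SLC25A3 exon 3A: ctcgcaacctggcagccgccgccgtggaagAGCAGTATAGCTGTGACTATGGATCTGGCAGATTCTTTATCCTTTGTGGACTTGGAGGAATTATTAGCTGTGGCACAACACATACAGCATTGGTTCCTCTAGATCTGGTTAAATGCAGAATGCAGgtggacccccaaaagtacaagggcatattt
SLC25A3 exon 3B: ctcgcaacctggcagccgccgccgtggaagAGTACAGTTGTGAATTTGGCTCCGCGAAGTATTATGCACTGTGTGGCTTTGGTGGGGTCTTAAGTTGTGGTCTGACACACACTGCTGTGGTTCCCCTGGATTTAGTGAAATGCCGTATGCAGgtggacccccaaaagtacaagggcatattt

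No SLC25 gene passed the threshold in the gene table. Of the 38 genes, all of which averaged 0.5 FPKM or more across the 6 libraries, 0 had a limma adjusted p below 0.05, where 0.00832% of the 12017 genes tested did (FGL1 alone). At an unadjusted p below 0.05 limma also called 0 of 38, where 2.01% of all genes tested were called. An ordinary linear model in place of limma's moderated variance called 1 gene higher and 1 lower at an unadjusted p below 0.05 and 0 after adjustment. The log2 fold changes of the 38 genes ran from -0.53 to 0.45. Their median was 0.098, beside 0.016 over all genes tested, and 26 of 38 (68.4%) were above 0, beside 53.7% of all genes tested. Every 95% interval included 0, and for 36 of the 38 genes it lay within -1 and 1, so that doubling or halving on this scale was outside the interval for these 36. The 3 genes whose NC and FGL1-OE values did not overlap, SLC25A46, SLC25A21 and SLC25A42, made up 7.89% of the family, beside 7.15% of all genes tested. SLC25A46 and SLC25A21 were higher in FGL1-OE, beside 4.09% of all genes tested, and SLC25A42 was lower, beside 3.06%.

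**Figure D1:**
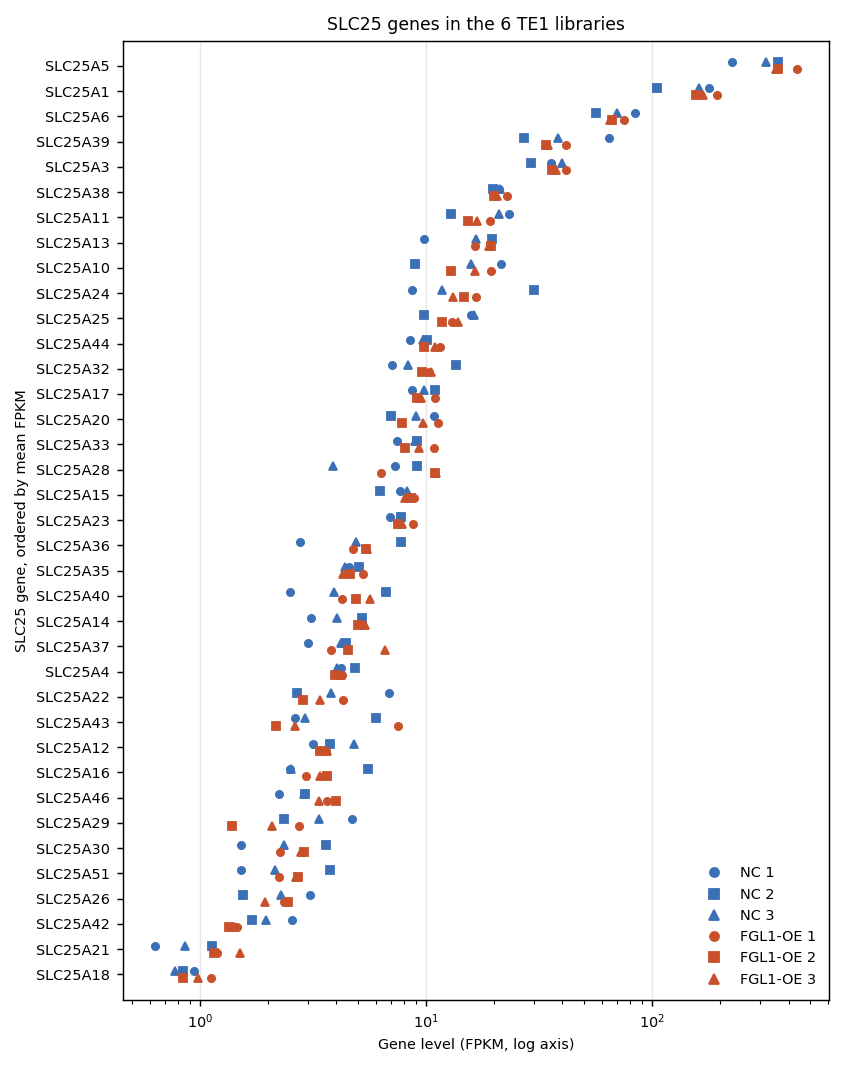
Level of 37 of the 38 SLC25 genes (FPKM, log axis), ordered by mean level, with 1 point per library (NC blue, FGL1-OE orange; the marker shape gives the library number). SLC25A5 lies highest at 224 to 437 FPKM, and in most genes the NC points spread wider than the FGL1-OE points.

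**Figure D2:**
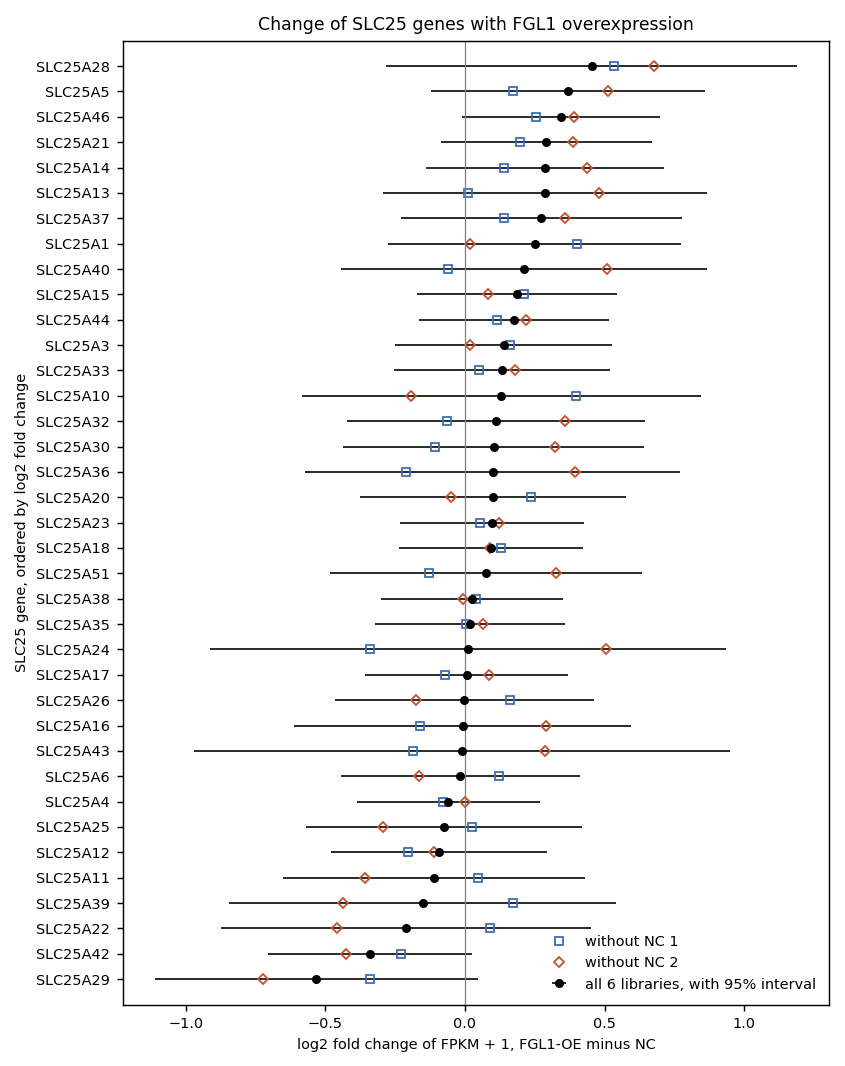
log2 fold change of FPKM + 1 (FGL1-OE minus NC) of 37 of the 38 SLC25 genes. Black points with bars are estimates with 95% intervals from all 6 libraries, open squares are estimates without NC 1, and open diamonds are estimates without NC 2. Each bar crosses 0, and the estimates run from -0.53 (SLC25A29) to 0.45 (SLC25A28).

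The family was dominated by a few genes. At 20 FPKM or more on average stood 6 genes, 15 genes lay between 5 and 20 FPKM, and 17 lay below 5 FPKM. The 5 highest, SLC25A5, SLC25A1, SLC25A6, SLC25A39 and SLC25A3, held 69.7% to 75.3% of the summed SLC25 level of a library. The summed level was 810, 825 and 858 FPKM in NC, against 1048, 881 and 901 FPKM in FGL1-OE. Every FGL1-OE sum lay above every NC sum. SLC25A5 made up 73.6% of the difference between the group means of 112 FPKM. Without it the sums were 586, 467 and 540 FPKM in NC, against 610, 523 and 548 FPKM in FGL1-OE, and the groups overlapped. As a share of all listed FPKM, the family held 0.384%, 0.365% and 0.404% in NC and 0.468%, 0.412% and 0.419% in FGL1-OE, again without overlap.

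The adenine nucleotide translocases exchange cytosolic ADP for matrix ATP. SLC25A5, the translocase of proliferating cells, which lies at chrX:118602363-118605282 in the GRCh37 coordinates of the files, was the most abundant SLC25 gene and stood at 224, 358 and 318 FPKM in NC, against 437, 358 and 353 FPKM in FGL1-OE. NC 1 was the lowest and FGL1-OE 1 the highest library, with the other 4 close together. The log2 fold change was 0.37 (SE 0.21, 95% interval -0.12 to 0.86), with an adjusted p of 1.00 by limma. It was 0.17 without NC 1 (unadjusted p = 0.32 by limma) and 0.51 without NC 2 (unadjusted p = 0.031 by limma). Without NC 2, 21.8% of all genes tested had an unadjusted p below 0.05 by limma. A share of 25.5% of the 31-base words of its transcript also occurs in 7 other annotated genes, led by SLC25A5 pseudogenes, so reads could be split between them. SLC25A6, the other widely expressed translocase, was at 84.2, 56.3 and 69.8 FPKM in NC, against 74.5, 66.0 and 64.8 FPKM in FGL1-OE (log2 fold change -0.018, SE 0.18). SLC25A4, the heart and muscle translocase, was far lower at 4.22, 4.82 and 4.04 FPKM in NC, against 4.25, 3.95 and 4.22 FPKM in FGL1-OE (log2 fold change -0.059, SE 0.14). Within the sum of these 3 genes SLC25A5 took 71.7%, 85.4% and 81.2% in NC and 84.7%, 83.7% and 83.6% in FGL1-OE. The share of SLC25A4 was 1.35%, 1.15% and 1.03% in NC and 0.823%, 0.923% and 1.00% in FGL1-OE. It was lower in every FGL1-OE library, by a margin that was narrow between NC 3 and FGL1-OE 3. The levels of SLC25A4 itself overlapped between the groups.

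The carriers of phosphate and of ATP-Mg set the phosphate and adenine nucleotide content of the matrix. The phosphate carrier SLC25A3 was at 35.7, 29.2 and 39.7 FPKM in NC, against 41.5, 35.8 and 37.4 FPKM in FGL1-OE, and the groups overlapped (log2 fold change 0.14, SE 0.17; 0.020 without NC 2). The ATP-Mg carrier SLC25A24 was at 8.63, 29.9 and 11.8 FPKM in NC, against 16.6, 14.6 and 13.2 FPKM in FGL1-OE. NC 2 was the highest and NC 1 the lowest library, and the log2 fold change with all libraries was 0.010 (SE 0.40). For SLC25A24 it was -0.34 without NC 1 (unadjusted p = 0.36 by limma) and 0.50 without NC 2 (unadjusted p = 0.022 by limma). Its relative SLC25A23 was at 6.92, 7.73 and 7.64 FPKM in NC, against 8.74, 7.51 and 7.81 FPKM in FGL1-OE (0.097, SE 0.14). The related SLC25A25 was at 15.8, 9.79 and 16.3 FPKM in NC, against 13.01, 11.8 and 13.9 FPKM in FGL1-OE (-0.075, SE 0.21). None of these 4 genes separated the groups.

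The carriers of di- and tricarboxylic acids carry citrate, malate and oxoglutarate across the inner membrane. SLC25A1, the citrate carrier that exports citrate for fatty acid synthesis, was at 178, 105 and 161 FPKM in NC, against 194, 156 and 167 FPKM in FGL1-OE. NC 2 lay below the other libraries, and the log2 fold change of 0.25 (SE 0.23) was 0.019 without it and 0.40 without NC 1. SLC25A11, the oxoglutarate and malate carrier, was at 23.2, 12.8 and 21.0 FPKM in NC, against 19.1, 15.3 and 16.8 FPKM in FGL1-OE (-0.11, SE 0.23). NC 2 was again lowest, and without it the log2 fold change was -0.36 (unadjusted p = 0.042 by limma). Without NC 1 it was 0.045 (unadjusted p = 0.84 by limma). SLC25A21, the oxodicarboxylate carrier, was at 0.631, 1.13 and 0.861 FPKM in NC, against 1.19, 1.15 and 1.51 FPKM in FGL1-OE. Its groups did not overlap, by a margin that was narrow between NC 2 and FGL1-OE 2 (0.29, SE 0.16, unadjusted p = 0.11 by limma). The estimate was 0.20 without NC 1 (unadjusted p = 0.24 by limma) and 0.39 without NC 2 (unadjusted p = 0.028 by limma).

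The aspartate and glutamate carriers feed the malate-aspartate shuttle, which moves reducing equivalents into the matrix. SLC25A13, the isoform also known as citrin, was at 9.73, 19.6 and 16.5 FPKM in NC, against 16.4, 19.3 and 18.9 FPKM in FGL1-OE (log2 fold change 0.29, SE 0.25). NC 1 lay below the rest, and the estimate was 0.011 without it and 0.48 without NC 2. SLC25A12, the paralog of excitable tissues, was at 3.17, 3.74 and 4.78 FPKM in NC, against 3.59, 3.39 and 3.66 FPKM in FGL1-OE (-0.094, SE 0.17). SLC25A13 took 75.4%, 84.0% and 77.6% of the sum of this pair in NC and 82.0%, 85.1% and 83.8% in FGL1-OE, with overlap. SLC25A22, a glutamate carrier, was at 6.86, 2.68 and 3.81 FPKM in NC, against 4.27, 2.86 and 3.39 FPKM in FGL1-OE (-0.21, SE 0.28), with all FGL1-OE libraries inside the range of NC.

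Among the carriers of other amino acids, SLC25A29 had the lowest log2 fold change of the family. It carries basic amino acids such as arginine and lysine, lies at chr14:100757448-100772884 (GRCh37), and stood at 4.69, 2.35 and 3.36 FPKM in NC, against 2.74, 1.39 and 2.08 FPKM in FGL1-OE. NC 2 lay inside the range of FGL1-OE, and the other NC libraries above it. The log2 fold change was -0.53 (SE 0.25, 95% interval -1.11 to 0.046) with an unadjusted p of 0.066 and an adjusted p of 1.00 by limma. Without NC 2 it was -0.72 with an unadjusted p of 0.013, and without NC 1 it was -0.34 with an unadjusted p of 0.18. Its main transcript has a GC content of 65.3%, among the highest in the family.

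The carriers of cofactors bring coenzyme A, folate, NAD and S-adenosylmethionine into mitochondria or peroxisomes. SLC25A42, the coenzyme A carrier at chr19:19174808-19223697 (GRCh37), was at 2.55, 1.70 and 1.95 FPKM in NC, against 1.46, 1.35 and 1.42 FPKM in FGL1-OE, lower in every FGL1-OE library. The log2 fold change was -0.34 (SE 0.16, 95% interval -0.70 to 0.027, unadjusted p = 0.065, adjusted p = 1.00 by limma). It was -0.23 without NC 1 (unadjusted p = 0.14 by limma) and -0.42 without NC 2 (unadjusted p = 0.017 by limma). Among the 7 cofactor carriers 4 were above 0 and 3 below.

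The mitoferrins bring iron into mitochondria for heme and iron-sulfur cluster synthesis. SLC25A28, the widely expressed mitoferrin 2, had the highest log2 fold change of the family at 0.45 (SE 0.32). It stood at 7.28, 9.12 and 3.86 FPKM in NC, against 6.30, 10.9 and 11.1 FPKM in FGL1-OE, so that FGL1-OE 1 lay below 2 of the 3 NC libraries. NC 3 was the lowest library, and without it the log2 fold change was 0.15. SLC25A37, the mitoferrin 1 of erythroid cells, was at 3.01, 4.43 and 4.20 FPKM in NC, against 3.80, 4.52 and 6.55 FPKM in FGL1-OE (0.27, SE 0.22; 0.090 without FGL1-OE 3). The groups overlapped for both.

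The pyrimidine nucleotide carriers supply nucleotides for mitochondrial DNA and RNA. SLC25A33 was at 7.41, 9.06 and 8.91 FPKM in NC, against 10.9, 8.07 and 9.29 FPKM in FGL1-OE (log2 fold change 0.13, SE 0.17). SLC25A36 was at 2.76, 7.70 and 4.88 FPKM in NC, against 4.72, 5.40 and 5.45 FPKM in FGL1-OE (0.099, SE 0.29). For SLC25A36 the FGL1-OE libraries lay between NC 1 and NC 2.

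SLC25A46 differs from its relatives in that it sits in the outer membrane, where it takes part in mitochondrial dynamics. The gene lies at chr5:110073837-110100861 (GRCh37) and had the lowest unadjusted p of the family. Its level was 2.24, 2.91 and 2.89 FPKM in NC, against 3.65, 3.98 and 3.36 FPKM in FGL1-OE, higher in all 3 FGL1-OE libraries than in any NC library. The log2 fold change was 0.34 (SE 0.15, 95% interval -0.010 to 0.70), with an unadjusted p of 0.055 and an adjusted p of 1.00 by limma. The exact two-sided permutation p was 0.1, the smallest that 3 libraries against 3 allow. Leaving out 1 library at a time kept the estimate between 0.26 (without NC 1) and 0.39. The unadjusted p by limma was 0.12 without NC 1 and 0.029 without NC 2. In the fit without NC 2, 21.8% of all genes tested had an unadjusted p below 0.05. Its main transcript, SLC25A46-201, was at 6.35, 1.52 and 7.45 FPKM in NC, against 9.90, 10.1 and 5.22 FPKM in FGL1-OE, and there the groups overlapped.

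The glutathione carrier SLC25A39, among the 5 most abundant members, was at 64.3, 27.0 and 38.4 FPKM in NC, against 41.5, 33.9 and 34.4 FPKM in FGL1-OE. NC 1 was the highest and NC 2 the lowest library, and the log2 fold change of -0.15 (SE 0.30) was -0.44 without NC 2 and 0.17 without NC 1. A further 16 members, at mean levels of 0.916 to 20.8 FPKM, had log2 fold changes of -0.010 to 0.29 and unadjusted p-values of 0.16 or more. Of these, 13 were above 0 and 3 below. Some of them share much sequence with other genes, so their levels are uncertain: 88.0% of the 31-base words of SLC25A32, 57.7% to 64.3% of those of the SLC25A10 transcripts and 45.0% to 63.6% of those of the SLC25A51 transcripts occur in other annotated genes.

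Transcript values were spread wider than gene totals, with log2 fold changes from -1.48 to 1.501. Of the 88 transcripts, 81 averaged 0.5 FPKM or more. At an adjusted p below 0.05 limma called 0 of 81, where 0.0165% of the 30330 transcripts tested were called. At an unadjusted p below 0.05 it called 3 (3.70%), where 3.53% of all transcripts tested were called (2.05% higher and 1.48% lower). These were SLC25A25-202, which was higher, and SLC25A25-203 and SLC25A39-201, which were lower in FGL1-OE. The groups did not overlap in 9 of 81 transcripts (11.1%), beside 8.22% of all transcripts tested, with 4 higher and 5 lower (4.65% and 3.57% of all transcripts tested). SLC25A25 gave 3 of the 9 and SLC25A39 gave 2.

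SLC25A39-202, which carries the 24-base segment printed above, was at 14.8, 7.35 and 14.0 FPKM in NC, against 26.3, 18.2 and 16.0 FPKM in FGL1-OE. SLC25A39-201, which lacks it, was at 17.5, 8.66 and 15.9 FPKM in NC, against 7.82, 5.48 and 6.72 FPKM in FGL1-OE. The groups did not overlap in either transcript, and these transcripts differed in opposite directions. The log2 fold changes were 0.72 for SLC25A39-202 (SE 0.35, unadjusted p = 0.085, adjusted p = 1.00 by limma) and -0.93 for SLC25A39-201 (SE 0.33, unadjusted p = 0.029, adjusted p = 1.00 by limma). The share of the gene's summed transcript FPKM with the segment was 10.2%, 15.4% and 20.7% in NC (mean 15.4% ± 5.21, SD) and 37.7%, 32.7% and 31.02% in FGL1-OE (mean 33.8% ± 3.50, SD), higher in 3 of 3 FGL1-OE libraries than in any NC library (exact two-sided permutation p = 0.1). The other transcripts without the segment did not share one direction, with log2 fold changes of 0.25 for SLC25A39-203, 0.28 for SLC25A39-207, -0.097 for SLC25A39-212, -0.11 for SLC25A39-216 and -0.73 for SLC25A39-211. In NC 1 the transcript SLC25A39-211, which starts downstream of the segment, was at 88.6 FPKM, against 2.53 to 14.7 FPKM in the other libraries. Over the 6 transcripts that span the segment, the share was 26.4%, 16.3% and 26.4% in NC and 46.6%, 38.5% and 36.02% in FGL1-OE, without overlap. Only SLC25A39-202 carries the segment, so both shares restate its values, which had been seen when the segment was chosen. They are no separate support. The most abundant SLC25A39 transcript was SLC25A39-202 in all 3 FGL1-OE libraries and a different transcript in each NC library. Leaving out 1 library at a time kept the log2 fold change of SLC25A39-202 between 0.43 and 0.89 and that of SLC25A39-201 between -1.22 and -0.75. These transcripts have little sequence of their own: 0.261% of the 31-base words of SLC25A39-202 and 2.66% of those of SLC25A39-201 are free of the other transcripts annotated for it.

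With all 6 libraries, the listed SLC25A25 transcripts with the exon had log2 fold changes above 0, and those without it below 0. SLC25A25-202, with the 36-base exon, was at 0.0693, 1.10 and 0.992 FPKM in NC, against 5.63, 1.46 and 5.22 FPKM in FGL1-OE. The groups did not overlap, but FGL1-OE 2 lay close to NC (log2 fold change 1.501, SE 0.49, unadjusted p = 0.021, adjusted p = 1.00 by limma). SLC25A25-204, the other transcript with the exon, was at 0, 1.57 and 0.271 FPKM in NC, against 2.23, 0.695 and 3.87 FPKM in FGL1-OE. Its groups overlapped (1.01, SE 0.52). SLC25A25-205, which lacks the exon, was at 6.21, 1.21 and 8.52 FPKM in NC, against 0.731, 7.65 and 3.17 FPKM in FGL1-OE. Its groups overlapped too (-0.43, SE 0.77), and its log2 fold change was 0.17 without FGL1-OE 1. SLC25A25-201, which starts furthest downstream, was at 7.89, 5.76 and 8.69 FPKM in NC, against 5.74, 4.21 and 5.20 FPKM in FGL1-OE (-0.47, SE 0.26). SLC25A25-203 was at 7.55, 3.79 and 3.78 FPKM in NC, against 3.14, 1.96 and 1.17 FPKM in FGL1-OE (-0.96, SE 0.37, unadjusted p = 0.040, adjusted p = 1.00 by limma). Both were lower in every FGL1-OE library, for SLC25A25-201 by a margin that was narrow between NC 2 and FGL1-OE 1. The share of summed SLC25A25 transcript FPKM with the exon was 0.319%, 19.9% and 5.67% in NC and 45.0%, 13.5% and 48.8% in FGL1-OE. FGL1-OE 2 lay below NC 2, so the groups overlapped (exact two-sided permutation p = 0.2). Every 31-base word of SLC25A25-202 also occurs in another transcript annotated for the gene, so its level is uncertain. Leaving out 1 library at a time kept the log2 fold change of SLC25A25-202 between 1.19 and 1.96 and that of SLC25A25-203 between -1.19 and -0.68.

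SLC25A3 gave a contrast. The share of its summed transcript FPKM with exon 3A was 12.1%, 8.28% and 7.74% in NC and 10.5%, 9.54% and 8.38% in FGL1-OE, with means of 9.38% ± 2.39 and 9.46% ± 1.05 (SD). All FGL1-OE libraries lay inside the range of NC (exact two-sided permutation p = 0.9), and exon 3B held the rest in every library.

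**Figure D3:**
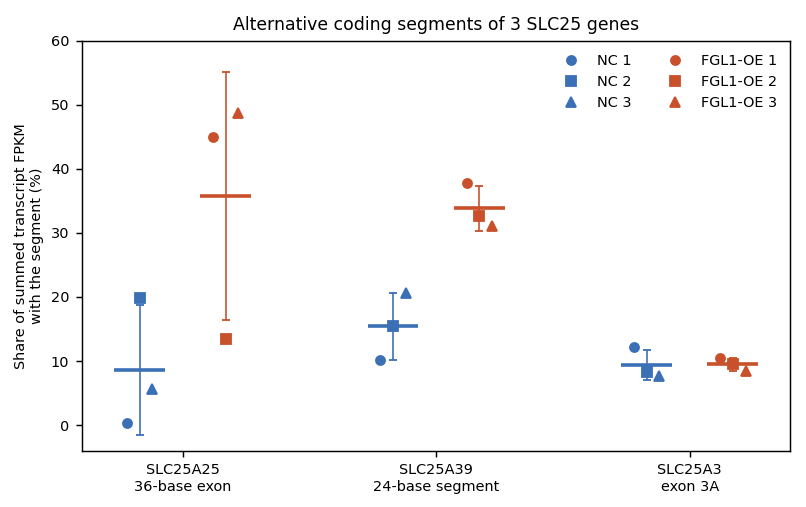
Share of a gene's summed transcript FPKM in transcripts with the named segment (%), with 1 point per library, a horizontal bar at the group mean and an error bar of 1 SD. The SLC25A39 segment separates NC (10.2% to 20.7%) from FGL1-OE (31.02% to 37.7%), while the groups overlap for the SLC25A25 exon and for SLC25A3 exon 3A.

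The remaining transcripts without overlap belonged to genes already named for their totals and to SLC25A14. SLC25A14-214, from a gene related to the uncoupling proteins, was at 0.677, 0 and 0.568 FPKM in NC, against 1.20, 1.15 and 0.809 FPKM in FGL1-OE. SLC25A21-201 was at 0.633, 1.36 and 1.08 FPKM in NC, against 1.57, 1.49 and 2.00 FPKM in FGL1-OE, and SLC25A42-201 at 3.52, 2.23 and 2.56 FPKM in NC, against 1.92, 1.72 and 1.94 FPKM in FGL1-OE. SLC25A29-208 was at 1.97, 1.44 and 2.97 FPKM in NC, against 1.04, 0.417 and 1.38 FPKM in FGL1-OE. Their log2 fold changes were 0.57, 0.42, -0.39 and -0.69, each with an adjusted p of 1.00 by limma. Of the 25 genes with more than 1 listed transcript, 13 changed their most abundant transcript between libraries and 12 did not.

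The NC libraries differed among themselves more than the FGL1-OE libraries did, by the SD of 30 of the 38 members and of 10108 of the 12017 genes tested. The SD of log2(FPKM + 1), as a median over the 38 members, was 0.32 in NC and 0.12 in FGL1-OE, beside 0.31 and 0.12 over all genes tested. NC 1 was the lowest library for 18 of 38 members (47.4%, beside 41.3% of all genes tested) and NC 2 for 13 (34.2%, beside 30.7%). FGL1-OE 1 was the lowest for 0, beside 9.79% of all genes tested, and the highest for 13 (34.2%, beside 10.4%). The difference between NC 2 and NC 1 followed the GC content of a member's main transcript. It was below 0 for 15 of the 19 members with the higher GC content (50.8% to 65.6%) and above 0 for 18 of the 19 with the lower (34.2% to 50.1%), with medians of -0.57 and 0.68 on the log2 scale. Across the 38 members, which share these libraries, Pearson's r was -0.83 and Spearman's rho -0.84, beside -0.76 and -0.79 over the 11775 genes tested with a GC content. Against the mean of the 6 libraries, NC 1 was higher in members of higher GC content (r = 0.83) and NC 2 lower (r = -0.74). GC content was related to the log2 fold change with r = -0.34 and rho = -0.28 with all libraries, r = -0.68 and rho = -0.68 without NC 2, and, with the opposite sign, r = 0.39 and rho = 0.38 without NC 1. The part of GC content in the group differences was not tested.

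**Figure D4:**
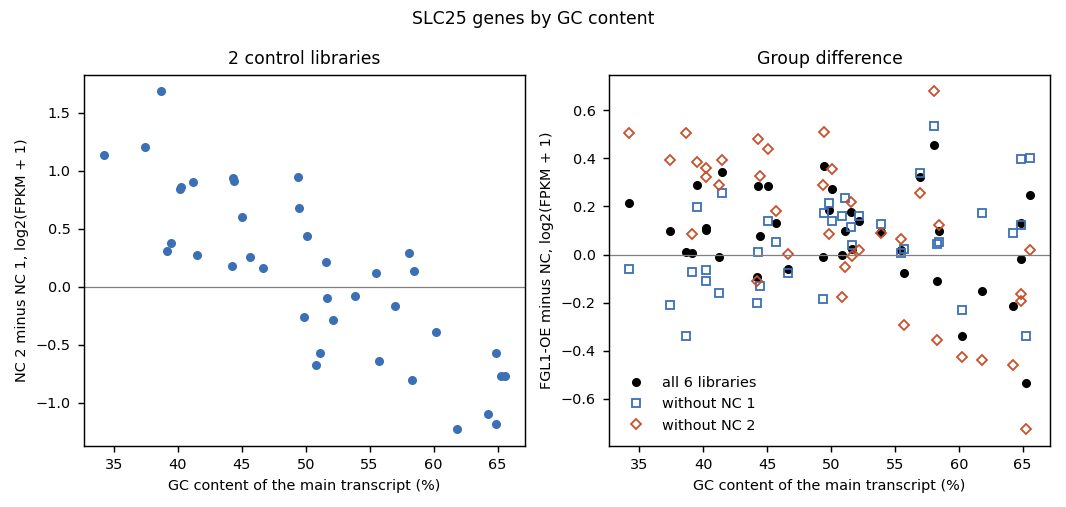
Left, NC 2 minus NC 1 in log2(FPKM + 1) for each SLC25 gene against the GC content (%) of its main transcript. Right, log2 fold change of FGL1-OE against NC with all 6 libraries (black), without NC 1 (open squares) and without NC 2 (open diamonds). Points fall from left to right in the left panel (r = -0.83), while in the right panel they fall without NC 2 (r = -0.68) and rise without NC 1 (r = 0.39).

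Without NC 2, limma called 10 of 38 genes (26.3%) at an unadjusted p below 0.05, 7 higher and 3 lower, where 21.8% of all genes tested were called (11.2% higher and 10.6% lower), and 0 at an adjusted p below 0.05, where 0.0583% were called. The groups then did not overlap in 14 of 38 (36.8%), beside 42.8% of all genes tested. Of the 19 members with lower GC content 18 were then above 0, and their median was 0.36 on the log2 scale, against 8 of the 19 with higher GC content, whose median was -0.051. Of the 81 transcripts, 8 (9.88%) were called at an unadjusted p below 0.05, beside 9.03% of all transcripts tested, and 0 after adjustment, beside 0.0923%. Without NC 1, limma called 0 of 38 genes at an unadjusted p below 0.05, where 2.75% of all genes tested were called, and 0 at an adjusted p below 0.05, where 0.0166% were called. The groups then did not overlap in 4 of 38 (10.5%), beside 14.1%. Of the 19 members with lower GC content 8 were then above 0 (median -0.064), against 17 of the 19 with higher GC content (median 0.12). Of the 81 transcripts 0 were called without NC 1 at an unadjusted p below 0.05, beside 4.08%, and 0 after adjustment, beside 0.0198%.

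Genes that work beside the carriers were described by the same comparison. Of 16 genes for the import of carrier proteins, the small TIM chaperones, TIM22 and TOM subunits, all were listed and 12 were above 0, with a median log2 fold change of 0.11. TIMM8B, a small chaperone of the intermembrane space, was the only one with an unadjusted p below 0.05. It was at 7.07, 7.54 and 10.99 FPKM in NC, against 11.2, 30.6 and 32.5 FPKM in FGL1-OE, and FGL1-OE 1 lay close to NC 3 (log2 fold change 1.32, SE 0.39, unadjusted p = 0.010, adjusted p = 1.00 by limma). Of 18 other mitochondrial transporters and channels, such as the pyruvate carriers, sideroflexins and voltage-dependent anion channels, 14 were above 0 with a median of 0.10, and limma called 0 at an unadjusted p below 0.05. The 3 listed carriers under other symbols, UCP2, MTCH1 and MTCH2, gave a median of 0.10, and the 10 listed regulators of mitochondrial biogenesis a median of 0.039, again with 0 called. Each median stands beside 0.016 over all genes tested. The counts above 0 stand beside 53.7% of all genes tested, and the counts called at an unadjusted p below 0.05 by limma beside 2.01%. In such bulk libraries, fewer cells that express a gene and less RNA per cell cannot be told apart.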

How the data were processed

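mRNA from 3 NC and 3 FGL1-OE TE1 libraries was sequenced after oligo(dT) enrichment and stranded library preparation. The deposited gene and transcript tables hold FPKM values that the authors computed. The submitters' processing notes name StringTie and GRCh37, and other steps, versions, the annotation release and the use of strand in counting are not given in the sources used here. The tables also hold the authors' own fold changes and p-values, which were not used. Read counts were not analysed here, so the depth behind a value is unknown. Summed over listed genes, a library held 210904 to 226307 FPKM.

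Genes (12017) and transcripts (30330) that averaged 0.5 FPKM or more across 6 libraries were tested in limma 3.58.1 (R 4.3.3) on log2(FPKM + 1), with a pseudocount of 1 and no covariates, and the Benjamini-Hochberg adjustment was made per table. An exact two-sided permutation test was added for single values. The fit was tested on simulated data with independent genes or transcripts and the same SD in both groups. That test does not cover the wider spread of NC or the GC-related differences between libraries. All 88 SLC25 transcripts were found by identifier in GENCODE v29 (GRCh38), 87 with the same version, for GC content, shared 31-base words and segment positions. File coordinates were not mixed with these.

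Members and lists were chosen with earlier results of these data known. Genes were named by rule: FGL1, the 5 highest by mean FPKM, the 5 largest rises and falls, members with an unadjusted p below 0.05 or without overlap, and fixed paralog sets. 1 gene that the rule names is not reported here. The segments were chosen after the values had been seen. The alternatives were another pseudocount (0.1), no filter, a filter at 1 FPKM, library scaling to a common sum, quantile normalization, an ordinary linear model, a replicate block, summed transcripts in place of the gene table, and leaving out each library.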

Additional observations from a re-analysis of the deposited data

How the results depend on the processing

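At an adjusted p below 0.05 the number of SLC25 genes and of SLC25 transcripts was 0 under every alternative, and the lowest adjusted p of the 31 genes and transcripts that the rule names, over these alternatives, was 0.19. Of these 31, 21 kept their sign under every alternative. Of all 38 SLC25 genes, 17 kept their sign in every fit that left out 1 library, and 21 changed it in at least 1 such fit. The number of genes without overlap, 3, was 5 after scaling to a common sum, and 4 to 14 when 1 library was left out. The number of genes higher at an unadjusted p below 0.05, 0 by limma, was 1 under the ordinary linear model and 1 from summed transcripts, and 0 to 7 when 1 library was left out. The number lower, also 0, was 1 under the ordinary linear model, 1 with the pseudocount of 0.1 and 1 from summed transcripts, and 0 to 3 when 1 library was left out. For transcripts the number without overlap, 9, was 13 to 25 when 1 library was left out. The number higher, 1, was 0 under the ordinary linear model and 0 to 3 when 1 library was left out, and the number lower, 2, was 1 and 0 to 6. The highest counts came without NC 2, except that of higher transcripts, which came without FGL1-OE 2. The median log2 fold change of the 38 genes, 0.098, was 0.042 (without FGL1-OE 1) to 0.14 when 1 library was left out. Of the other lists, the transporters and channels gave 1 call in place of 0 under the ordinary linear model and 1 from summed transcripts. When 1 library was left out they gave 0 to 5, the import genes 1 to 5 and the biogenesis regulators 0 to 3. Each count was highest without NC 2, where 21.8% of all genes tested were called. SLC25A24 was at -0.028 after quantile normalization and SLC25A3 at -0.040 from summed transcripts. When 1 library was left out, some of the genes that the rule names changed sign. Their log2 fold changes ranged from -0.36 to 0.045 (SLC25A11), -0.20 to 0.032 (SLC25A12), -0.46 to 0.089 (SLC25A22), -0.34 to 0.50 (SLC25A24), -0.29 to 0.045 (SLC25A25), -0.21 to 0.40 (SLC25A36), -0.44 to 0.17 (SLC25A39), -0.10 to 0.0019 (SLC25A4) and -0.16 to 0.12 (SLC25A6). The cause was not tested. Whether the replicate numbers pair the libraries is not given by the labels. Deviations from the group means of libraries with the same number correlated at 0.35, 0.28 and -0.061. NC 1 and NC 2 each correlated best with the FGL1-OE library of the same number, while NC 3 correlated best with FGL1-OE 1 (0.11). With a replicate block, 1 gene in place of 0 was lower at an unadjusted p below 0.05, SLC25A29, and 3 transcripts in place of 2.

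FPKM carry no read counts, so no counting error can be given, and 3 libraries a group leave wide intervals. Summed transcript FPKM were 0.305 to 4.83 times the gene FPKM, with a median of 1.27, so levels cannot be compared between the gene and transcript tables.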

Other observations

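SLC25A43 and SLC25A5 lie 13921 bases apart on the X chromosome in the files, which use GRCh37. SLC25A43, chosen after its values were seen, was at 2.64, 6.004 and 2.91 FPKM in NC, against 7.52, 2.16 and 2.63 FPKM in FGL1-OE, so that NC 2 and FGL1-OE 1 stood above the rest of their groups, and its log2 fold change was -0.010 (SE 0.41). SLC25A20-202, a transcript of the carnitine carrier chosen in the same way, was listed at 0 in 3 libraries (NC 2, NC 3 and FGL1-OE 2) and at 2.68, 5.33 and 7.99 FPKM in NC 1, FGL1-OE 1 and FGL1-OE 3. The 2 transcripts of SLC25A45, SLC25A45-206 and SLC25A45-208, had log2 fold changes of 0.0098 and -0.31.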
